A study of Mus musculus with 9 samples.

Results

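The genes described here are the 10 NF-κB subunits and feedback inhibitors Nfkb1, Nfkb2, Rel, Rela, Relb, Nfkbia, Nfkbib, Nfkbie, Bcl3 and Tnfaip3. They were listed by name, with earlier results of these data known. All 10 symbols were found among the 23946 genes of the deposited table, and all 10 were among the 10172 genes that passed the filter on low values (1 FPKM or more in 3 or more of the 9 libraries). FPKM counts fragments relative to transcript length and library size, so levels can be set side by side between genes.

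RNA was sequenced from mouse CD8 T cells in 3 groups of 3 libraries. The CTCF KO group carries the genotype label CTCF-/- and came from Ctcf-floxed donors. The DKO group carries the label Tcf1-/-Lef1-/- and came from donors with both of those genes floxed, Tcf1 being the product of Tcf7. The WT group is labelled wild type. Donors in every group, WT included, are described as carrying hCD2-Cre, a Cre recombinase under human CD2 control that acts in the lymphoid lineage, and Rosa26-lsl-GFP, a reporter that Cre switches on. Naive CD8+ T cells were enriched from donor spleens by removing other lineages, CD4+ cells and cells with high CD44. They were stained with CTV, a dye diluted at each division, and placed in Rag1 KO hosts, which make no T or B cells of their own, so that the transferred cells divided in a host short of lymphocytes. After 72 h, cells positive for CTV, TCRβ, GFP and CD8 were sorted from host spleens. Source names include the words "stim CD8", though no stimulus beyond the transfer is described. Deletion was driven in the donor before transfer, so the genotype also covers the cells' earlier life. Donor age and the number of animals behind a library are not given in the sources used here.

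NF-κB is a family of transcription factors that work as dimers. In a resting T cell, IκB proteins hold the dimers in the cytoplasm, and signals from the antigen receptor, costimulatory receptors and cytokine receptors activate the IκB kinase (IKK), which marks IκB for destruction and frees the dimers to enter the nucleus. Among the genes that NF-κB switches on are its own inhibitors, Nfkbia and Tnfaip3, and its own subunits, Nfkb2 and Relb, so the family is wired as a set of feedback loops that both end and sustain the response.

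The 9 libraries were alike in summed FPKM (629663 to 702470) and in the number of genes at 1 FPKM or more (9613 to 9832). Pearson's r of log2(FPKM + 1) between libraries was 0.960 to 0.992 for libraries of 1 group and 0.899 to 0.978 for libraries of different groups. Markers of CD8 T cells were high in every group. Cd8a averaged 464 FPKM in CTCF KO libraries, 285 FPKM in DKO libraries and 447 FPKM in WT libraries. Cd8b1 averaged 1614, 1895 and 1660 FPKM in the same order. Of 9 tested CD8 T cell markers, 4 were higher and 3 lower in DKO than in WT, beside 18.5% and 21.9% of all tested genes. Cd4 with Zbtb7b summed to at most 0.985 FPKM in any library. The RNA of the targeted genes checked the labels only in part. A gene-level value can also count exons outside the deleted stretch, and whether it did so here was not tested. Ctcf was at 20.2, 17.1 and 17.6 FPKM in the libraries labelled CTCF KO, against 18.6, 20.3 and 32.7 FPKM in WT, a difference that did not pass the test (log2 fold change -0.33, adjusted p = 0.319). In the libraries labelled DKO, Lef1 fell by 1.92 on the log2 scale against WT (adjusted p = 1.35e-08), whereas Tcf7 was higher by 0.42 (adjusted p = 0.000223). Ctcf was also higher in DKO than in WT (0.60, adjusted p = 0.0293), with overlapping libraries. The genotype names below are therefore those of the labels. Ddx3y, a Y-linked gene, was at 33.2 to 37.7 FPKM in CTCF KO libraries and at most 0.388 FPKM in DKO and 0.502 FPKM in WT libraries, while Xist was at most 0.00696 FPKM in CTCF KO and at least 1.71 FPKM in the others. The sex of the donors and the CTCF KO genotype cannot be told apart. RNA of neutrophil markers differed by group. The 8 markers listed summed to 15.1 to 18.8 FPKM in CTCF KO, 0.841 to 1.56 in DKO and 43.5 to 56.7 in WT libraries, with Elane at 0 in every library. The 8 B cell markers summed to 34.1 to 37.8 FPKM in CTCF KO, 99.5 to 118 FPKM in DKO and 58.5 to 62.3 FPKM in WT libraries, with nearly all of it from Cd79b, with Pax5 at 0 throughout and with 6 of the 8 markers under 1 FPKM in every library. Over all libraries, the sums were 47.3 to 66.9 FPKM for macrophage and monocyte markers and 54.6 to 89.9 FPKM for NK cell markers. They were 54.6 to 107 FPKM for erythroid markers and 4.42 to 9.17 FPKM for dendritic cell markers. The part of these cells in the results below was not tested.

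One technical measure also moved with the groups. For each gene, the highest GC content of any 200-base window of its transcripts was taken. A GC index was then computed for each library, as the mean log2 deviation of 828 genes with a window of at least 80% GC, minus that of the other genes, with the NF-κB members left out. The index was -0.06, -0.40 and -0.43 in the CTCF KO libraries, 0.47, 0.76 and 0.43 in the DKO libraries and -0.51, -0.34 and 0.09 in the WT libraries. All 3 DKO libraries lay above the other 6, and CTCF KO library 1 and WT library 3 stood above the rest of their groups. Against WT, 47.8% of the 831 GC-rich genes were higher in DKO and 5.42% lower, while 15.8% of the other 8963 genes were higher and 23.7% lower. Of the members, Nfkb1 (88.5%), Bcl3 (81.5%) and Rela (81.0%) have such a window, Relb (79.0%) lies just under the limit, and the other 6 lie between 68.0% and 77.0%.

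By group mean, the ends of the order of levels within the family were the same in every group. Nfkbia, the IκB protein whose destruction and resynthesis set the pace of the response, had the highest mean FPKM of the 10 genes in every group. Rela, the transactivating subunit of the classical dimer, came second. Rel, the subunit c-Rel known for its role in lymphocyte activation, had the lowest mean in every group. Bcl3 lay below Rel, however, in CTCF KO libraries 2 and 3 and in WT libraries 1 and 2. Its group means there rest on CTCF KO library 1 (9.54 FPKM) and WT library 3 (26.9 FPKM). Between these ends, the order in CTCF KO libraries was Nfkbib, Nfkb2, Tnfaip3, Nfkbie, Relb, Nfkb1 and Bcl3, with overlapping libraries for Nfkbie and Relb, Nfkb1 and Bcl3, and Bcl3 and Rel. In DKO libraries the order was Nfkb2, Tnfaip3, Bcl3, Nfkbib and Relb, each overlapping the next, and then Nfkbie and Nfkb1, which stood apart. In WT libraries it was Tnfaip3, Nfkbib and Nfkb2, each overlapping the next, and then Relb, Nfkbie, Bcl3 and Nfkb1, again each overlapping the next.

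**Figure D1:**
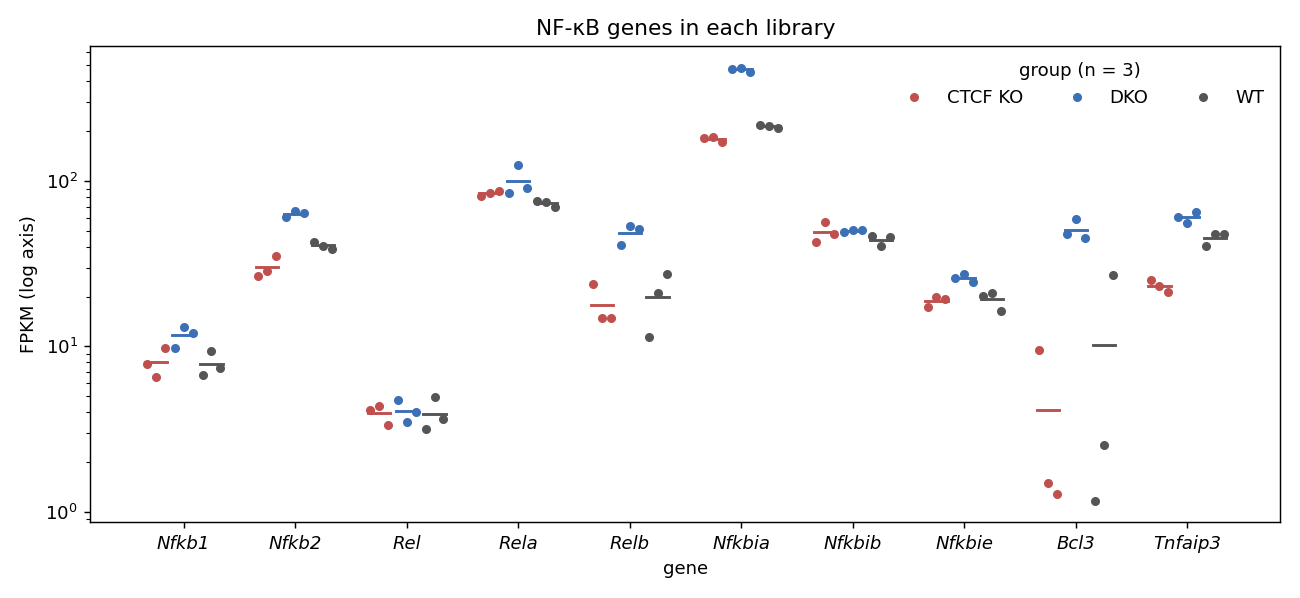
FPKM on a log axis of the 10 NF-κB genes in each library, with 3 points and a horizontal line for the mean of each group (CTCF KO, DKO and WT). The 3 DKO points of Nfkbia lie at 455 to 485 FPKM, above all other libraries, and the points of Rel overlap across the groups.

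The comparison of DKO with WT asks what differed in dividing CD8 T cells labelled as lacking both Tcf1 and Lef1. Of the 10 members, 8 were higher in the libraries labelled DKO, 0 were lower and 2 did not pass the test. Among all tested genes, 40.4% were called, 18.5% higher and 21.9% lower, at an adjusted p under 0.05 in a limma model fitted to all 9 libraries. The median log2 fold change was 0.47 over the 10 members and 0.01 over all tested genes. In 9 of the 10 members, all but Rel, every DKO library lay above every WT library, which was so for 26.8% of tested genes, with 54.1% apart in either direction. The q-values of the authors' deposited table put 7 members under 0.05, against 28.9% of tested genes. In RNA from sorted cells, fewer cells expressing a gene and less RNA per cell cannot be told apart.

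The largest change in FPKM among the inhibitors was that of Nfkbia, which encodes IκBα. It had 478, 485 and 455 FPKM in DKO libraries, against 217, 216 and 210 FPKM in WT libraries. The DKO libraries lay far above the highest WT library, with little spread in either group. The log2 fold change was 1.14 ± 0.05 (SE, n = 3 each; adjusted p = 2.2e-07), and it passed the test under all 19 alternative settings. Tnfaip3 encodes a ubiquitin-editing enzyme that shuts off signalling upstream of IKK. It had 60.2, 55.8 and 65.1 FPKM in DKO libraries, against 40.4, 48.0 and 47.8 FPKM in WT libraries. The groups were apart, and the change was smaller than that of Nfkbia (0.40 ± 0.10, adjusted p = 0.00996). Nfkbie encodes IκBε, an inhibitor that is itself resynthesized after activation. It had 26.1, 27.3 and 24.5 FPKM in DKO libraries, against 20.3, 21.1 and 16.4 FPKM in WT libraries (0.42 ± 0.11, adjusted p = 0.0138). The authors' deposited table gives Nfkbie a q-value of 0.107 in this comparison. Nfkbib encodes IκBβ, a more slowly lost inhibitor. It had 48.9, 50.7 and 50.7 FPKM in DKO libraries, against 46.2, 40.7 and 45.9 FPKM in WT libraries, and although the groups were apart it did not pass the test (0.18 ± 0.10, adjusted p = 0.188).

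Among the subunits, Nfkb2 encodes p100, which both restrains Relb-containing dimers and is processed into the subunit p52. It had 61.0, 65.7 and 63.7 FPKM in DKO libraries, against 43.0, 40.7 and 38.7 FPKM in WT libraries. The groups were apart (0.63 ± 0.10, adjusted p = 0.00107), and the call held under all 19 alternatives. Relb, the usual partner of p52, had 41.1, 53.3 and 51.1 FPKM in DKO libraries, against 11.4, 21.1 and 27.6 FPKM in WT libraries (1.31 ± 0.29, adjusted p = 0.00643). The WT libraries spread widely for this gene, and all lay below the DKO libraries. Rela had 84.7, 125 and 90.4 FPKM in DKO libraries, against 75.2, 74.8 and 70.1 FPKM in WT libraries (0.42 ± 0.13, adjusted p = 0.0256), with 1 DKO library well above the other two. Nfkb1 encodes p105, the precursor of p50, the partner of Rela in the classical dimer. It had 9.78, 13.1 and 12.1 FPKM in DKO libraries, against 6.72, 9.34 and 7.38 FPKM in WT libraries (0.52 ± 0.17, adjusted p = 0.0368). The calls of Rela and Nfkb1 were each lost when single libraries were left out, WT library 2 or 3 for Rela and DKO library 2 or 3 or WT library 1 or 3 for Nfkb1. Without WT library 3 the adjusted p was 0.0595 for Rela (0.00694 to 0.490 over its alternatives), and without DKO library 2 it was 0.111 for Nfkb1 (0.0293 to 0.461). Rel had 4.72, 3.50 and 3.99 FPKM in DKO libraries, against 3.18, 4.97 and 3.64 FPKM in WT libraries, and the groups overlapped (0.05 ± 0.17, adjusted p = 0.834). At this low level the interval of the Rel difference is wide, and its direction turned under other scalings of the libraries.

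Bcl3, an IκB-like nuclear protein that joins p50 or p52 dimers and helps them activate genes, had the largest log2 difference of the 10 genes in this comparison and the largest spread. It lies on chromosome 7 at 20393810 to 20408104, and Relb at 20191570 to 20214787 of the same chromosome, in the positions of the deposited table, which are not on GRCm38. Bcl3 had 47.9, 59.2 and 45.4 FPKM in DKO libraries, against 1.17, 2.53 and 26.9 FPKM in WT libraries. A single WT library, the one with the highest GC index of its group, stood far above the other two. The log2 fold change was 3.11 ± 0.89 (95% confidence interval 1.11 to 5.11, adjusted p = 0.0208), and leaving out single libraries gave 2.37 to 4.22 with adjusted p-values of 0.000656 to 0.0734. The call was lost without DKO library 1 or 2 and without WT library 1 or 2.

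**Figure D2:**
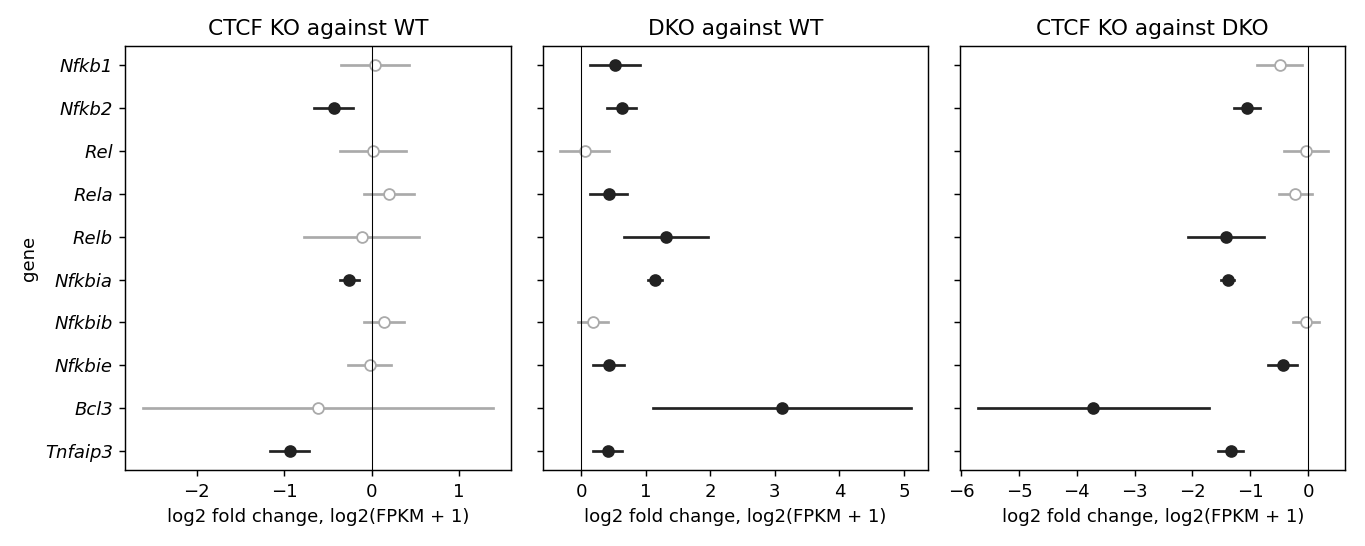
Log2 fold changes of the 10 genes on the log2(FPKM + 1) scale in 3 comparisons (CTCF KO against WT, DKO against WT, CTCF KO against DKO), with bars for the 95% confidence interval. Filled points passed an adjusted p of 0.05 in the limma model and open points did not. In DKO against WT, 8 filled points lie right of 0, and Bcl3 has the widest bar in every comparison.

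The level of Bcl3 followed the GC index of the libraries closely. Ranked by index and by Bcl3 FPKM, 9 of the 9 libraries held the same place, across groups and within them. For Relb it was 7 of the 9 libraries, and for the other 8 genes 0 to 4. Within groups, the slope on the index was 5.24 log2 units per unit of index for Bcl3 and 1.56 for Relb, and lay between -0.36 and 0.19 for the other 8 genes. In a fit with the index as a covariate, chosen after the data were seen, the DKO against WT difference was -1.12 for Bcl3 (adjusted p = 0.326, and 3.65e-06 to 0.326 over its alternatives) and 0.05 for Relb (adjusted p = 0.939, and 0.000488 to 0.939 over its alternatives). In that fit Nfkbia kept a difference of 1.13 (adjusted p = 0.000154, and 4.47e-08 to 0.000488 over its alternatives) and Nfkb2 one of 0.84 (adjusted p = 0.0190, the highest of its alternatives). Nfkbie also passed (0.71, adjusted p = 0.0461, and 0.0115 to 0.107 over its alternatives). Tnfaip3, called under the other 18 alternatives, was at 0.25 (adjusted p = 0.448, the highest of its alternatives). Rela was at 0.30 (adjusted p = 0.490) and Nfkb1 at 0.44 (adjusted p = 0.461), in each case the highest adjusted p of its alternatives. The lowest DKO index, 0.43, lies above the highest index of the other libraries, 0.09, so the index and the DKO label cannot be told apart. Without CTCF KO library 1 and WT library 3, a setting also chosen after the data were seen, 6 of the 10 members were called higher. Of all 10172 tested genes, 2018 were called higher and 2297 lower in that setting. The difference was then 4.22 for Bcl3 (adjusted p = 3.65e-06) and 1.57 for Relb (adjusted p = 0.000901). WT library 3 had the highest WT value of both genes, so leaving it out had to widen these differences, and no conclusion is drawn from them.

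**Figure D3:**
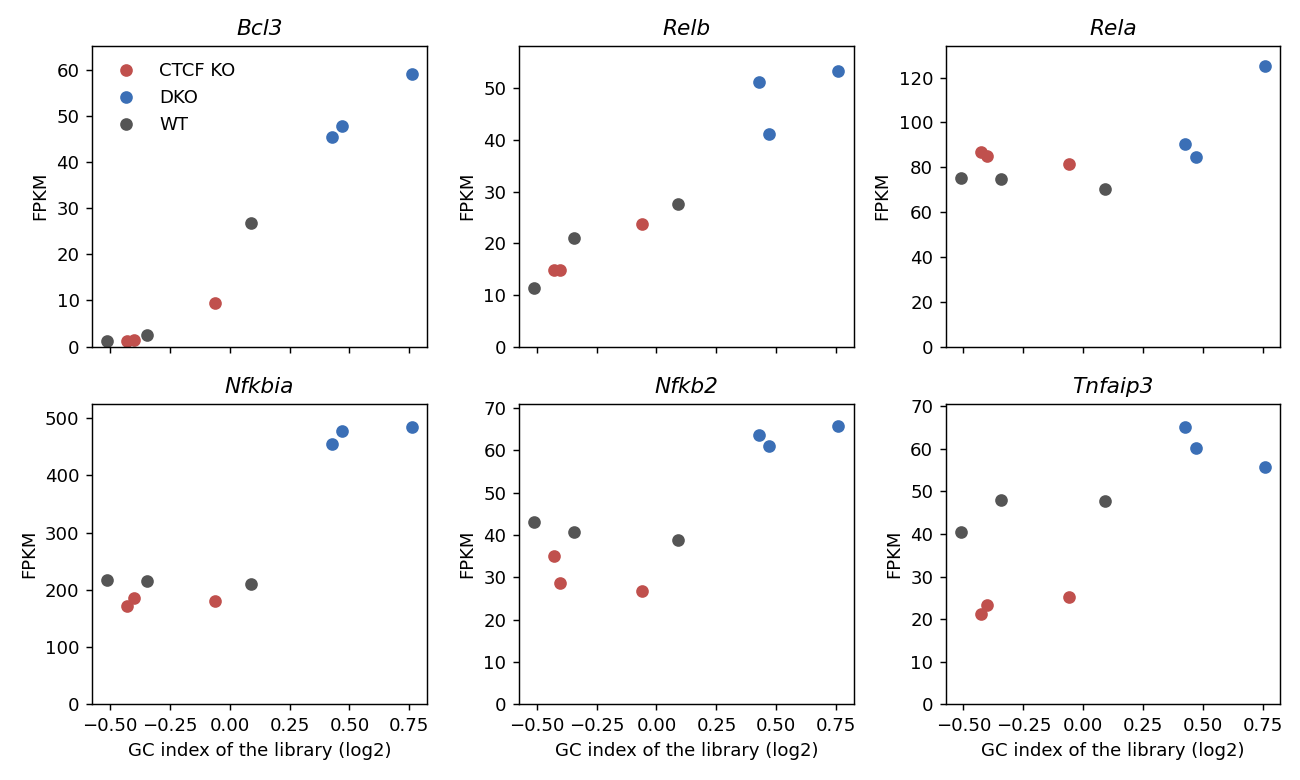
FPKM of 6 genes against the GC index (log2) of each of the 9 libraries, coloured by group. For Bcl3, FPKM climbs with the index through all 3 groups. Relb climbs likewise, except that DKO library 3 (51.1 FPKM) lies above DKO library 1 (41.1 FPKM) at a lower index. For Nfkbia and Nfkb2 the 3 DKO points stand above the other 6, which show no climb.

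The windows before the starts of these genes were read for the NF-κB site. Nfkbia and Nfkb2, whose DKO against WT differences held under every alternative, are known targets of the factor itself. Windows of 250 bases before to 50 bases after a start were given for 8 of the 10 members (RefSeq, GRCm38.p6), all but Nfkb1 and Relb. The NF-κB consensus, searched on both strands, matched in 5 of the 8, namely Nfkb2, Rel, Nfkbia, Bcl3 and Tnfaip3, and in 5.80% of the 32851 mouse windows of the same length. Here and below, a member counted if any of its windows matched, while the shares are over single windows, so the units differ. The sequences are shown 5′ to 3′ on the strand of the gene, with the matches in capitals. The first 4 run over the last 150 bases before the start, and that of Bcl3 spans 8 bases before to 22 bases after it. Nfkb2 has 3 windows and Tnfaip3 has 2, at different transcript starts, and 1 of each is shown; the second Tnfaip3 window holds no match. The starts used for Nfkb2 and Bcl3 differ from the gene start in the RefSeq table.
Nfkbia, chr12:55492648-55492797, minus strand: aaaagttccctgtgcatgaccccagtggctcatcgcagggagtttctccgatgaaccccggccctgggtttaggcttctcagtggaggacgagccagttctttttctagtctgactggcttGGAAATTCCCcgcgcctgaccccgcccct
Nfkb2, chr19:46304587-46304736, plus strand: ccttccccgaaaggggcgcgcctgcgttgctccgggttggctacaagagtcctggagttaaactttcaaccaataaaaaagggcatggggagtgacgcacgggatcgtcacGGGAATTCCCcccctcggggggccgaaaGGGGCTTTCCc
Tnfaip3, chr10:19015411-19015560, minus strand: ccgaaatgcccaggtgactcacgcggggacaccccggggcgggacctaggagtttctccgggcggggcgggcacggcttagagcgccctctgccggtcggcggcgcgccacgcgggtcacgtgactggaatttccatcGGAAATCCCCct
Rel, chr11:23770970-23771119, minus strand: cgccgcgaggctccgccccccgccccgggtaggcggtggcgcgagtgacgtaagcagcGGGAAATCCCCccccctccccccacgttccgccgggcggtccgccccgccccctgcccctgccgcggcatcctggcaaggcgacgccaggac
Bcl3, chr7:19822734-19822763, minus strand: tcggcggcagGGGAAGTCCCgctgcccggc
The Nfkb2 window shown holds 2 separate matches, the one at 39 to 30 bases before the start reading as a site on both strands. In Nfkbia the match lies 29 to 20 bases before the start and in Tnfaip3 12 to 3 bases before it. In Rel, 2 overlapping matches on the minus strand of the gene lie 92 to 82 bases before the start. Rel, which holds the site, did not pass the test in any comparison. CTTTGA, the core of the TCF/LEF site, searched on both strands, matched in 1 of the 8 members, Nfkbie, at 68 to 63 bases before the start, and in 16.0% of all windows. The CTCF core motif matched in 0 of the 8 members and in 0.557% of all windows. A match describes letters in these windows and shows no binding.

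The comparison of CTCF KO with WT asks what differed in cells labelled as lacking CTCF, the protein that anchors chromatin loops. It uses the same WT libraries as the DKO comparison. Of the 10 members, 0 were higher in the libraries labelled CTCF KO, 3 were lower (Tnfaip3, Nfkb2 and Nfkbia) and 7 did not pass the test. Among all tested genes, 12.2% were called, 5.78% higher and 6.37% lower. The median log2 fold change was -0.07 over the members and 0.01 over all tested genes. Groups were apart for 4 members, 3 of them lower and 1 higher, against 30.4% of tested genes, 14.4% lower and 16.0% higher. In the authors' deposited table, q-values were under 0.05 for 3 members (Nfkb2, Bcl3 and Tnfaip3) and for 9.48% of tested genes.

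Tnfaip3 had the largest called difference. It had 25.2, 23.3 and 21.2 FPKM in CTCF KO libraries, against 40.4, 48.0 and 47.8 FPKM in WT libraries. Every CTCF KO library lay well below every WT library, and the log2 fold change was -0.94 ± 0.10 (SE, n = 3 each; adjusted p = 0.000405). The call held under all 20 alternatives, with adjusted p-values of 0.000248 to 0.0375. Nfkb2 had 26.7, 28.6 and 35.1 FPKM in CTCF KO libraries, against 43.0, 40.7 and 38.7 FPKM in WT libraries (-0.43 ± 0.10, adjusted p = 0.0225). The groups were apart by a small gap, and without CTCF KO library 2, for one, the adjusted p was 0.0805 (0.00558 to 0.188 over its alternatives). The call was also lost without CTCF KO library 1, WT library 1 or WT library 2. Nfkbia had 181, 185 and 172 FPKM in CTCF KO libraries, against 217, 216 and 210 FPKM in WT libraries. Its difference was small and even across libraries (-0.25 ± 0.05, adjusted p = 0.00933), and the authors' deposited table gives it a q-value of 0.153.

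The remaining members did not pass the test. Rela had 81.3, 85 and 86.6 FPKM in CTCF KO libraries, against 75.2, 74.8 and 70.1 FPKM in WT libraries. The groups were apart with the CTCF KO libraries above (0.20 ± 0.13, adjusted p = 0.385). Relb had 23.8, 14.8 and 14.8 FPKM in CTCF KO libraries, against 11.4, 21.1 and 27.6 FPKM in WT libraries (-0.11 ± 0.29, adjusted p = 0.874). Bcl3 had 9.54, 1.49 and 1.29 FPKM in CTCF KO libraries, against 1.17, 2.53 and 26.9 FPKM in WT libraries (-0.61 ± 0.89, 95% confidence interval -2.61 to 1.39, adjusted p = 0.753). In both groups the high Bcl3 library was the one with the highest GC index. The authors' deposited table gives Bcl3 a q-value of 0.00133 here, and without WT library 3 the log2 fold change turned to 0.50 (adjusted p = 0.668, and 0.00133 to 1 over its alternatives). Nfkb1 had 7.87, 6.53 and 9.77 FPKM in CTCF KO libraries, against 6.72, 9.34 and 7.38 FPKM in WT libraries (0.03 ± 0.17, adjusted p = 0.938). Rel had 4.14, 4.35 and 3.36 FPKM in CTCF KO libraries, against 3.18, 4.97 and 3.64 FPKM in WT libraries (0.02 ± 0.17, adjusted p = 0.970). For both subunits the groups overlapped. Nfkbib had 42.8, 56.7 and 47.8 FPKM in CTCF KO libraries, against 46.2, 40.7 and 45.9 FPKM in WT libraries (0.14 ± 0.10, adjusted p = 0.449). Nfkbie had 17.3, 20.0 and 19.4 FPKM in CTCF KO libraries, against 20.3, 21.1 and 16.4 FPKM in WT libraries (-0.02 ± 0.11, adjusted p = 0.945). With the GC index as a covariate the same 3 members were called, beside 1342 of the 10172 tested genes.

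Set against each other directly, the libraries labelled CTCF KO were lower than those labelled DKO for 6 of the 10 members and higher for 0, with 4 not passing the test. Among all tested genes, 38.0% were called, 16.2% lower and 21.8% higher. Groups were apart for 7 members, all lower in CTCF KO, against 52.4% of tested genes in either direction and 24.2% lower. The q-values of the authors' deposited table were under 0.05 for 5 members and for 28.1% of tested genes. The median was -0.77 over the members and 0.02 over all tested genes. The differences were -1.39 ± 0.05 for Nfkbia (adjusted p = 8.68e-08), -1.34 ± 0.10 for Tnfaip3 (adjusted p = 9.38e-06) and -1.06 ± 0.10 for Nfkb2 (adjusted p = 4.96e-05), all called under all 19 alternatives. Nfkbie was lower in CTCF KO by a smaller amount (-0.44 ± 0.11, adjusted p = 0.0118), with an authors' deposited q-value of 0.0866. With the GC index as a covariate Nfkbie was at -0.74 and no longer called (adjusted p = 0.0576, and 0.00437 to 0.0866 over its alternatives). Relb (-1.42 ± 0.29, adjusted p = 0.00461) and Bcl3 (-3.72 ± 0.89, adjusted p = 0.00976) were also lower, and once the GC index entered the fit they were at -0.10 (adjusted p = 0.896, the highest of its alternatives, which began at 0.000488) and 0.73 (adjusted p = 0.586, the highest of its alternatives, which began at 4.25e-06). Nfkb1 lay at the threshold (-0.49 ± 0.17, adjusted p = 0.0501). Rela (-0.23 ± 0.13, adjusted p = 0.190) and Nfkbib (-0.04 ± 0.10, adjusted p = 0.800) did not pass, and neither did Rel, at -0.03.

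Sums over the family show how these changes fell on its make-up. The 5 subunits summed to 144 ± 5.20 FPKM in CTCF KO, 228 ± 30.4 FPKM in DKO and 146 ± 5.86 FPKM in WT libraries (SD, n = 3 each). The 3 cytoplasmic inhibitors Nfkbia, Nfkbib and Nfkbie summed to 248 ± 12.4 FPKM in CTCF KO, 549 ± 16.4 FPKM in DKO and 278 ± 5.93 FPKM in WT libraries. The ratio of inhibitors to subunits was 1.68, 1.88 and 1.6 in CTCF KO, 2.75, 2.16 and 2.40 in DKO and 2.04, 1.84 and 1.85 in WT libraries. The DKO libraries were above all others, while CTCF KO and WT libraries overlapped. With Rela, Nfkb1 and Relb, the subunits with the highest GC windows, left out of the subunit sum, the ratio was 7.83, 7.96 and 6.23 in CTCF KO libraries, 8.42, 8.13 and 7.84 in DKO libraries and 6.15, 6.09 and 6.42 in WT libraries. There DKO still lay above WT and overlapped CTCF KO. Nfkbia made up 72.6 ± 2.24% of inhibitor FPKM in CTCF KO libraries, 86.1 ± 0.31% in DKO libraries and 77.2 ± 0.57% in WT libraries. Rela made up 58.5 ± 2.31% of subunit FPKM in CTCF KO libraries, 43.7 ± 3.86% in DKO libraries and 50.4 ± 3.26% in WT libraries. The share of Relb was 12.4 ± 3.64% in CTCF KO libraries, 21.3 ± 1.55% in DKO libraries and 13.6 ± 5.28% in WT libraries, and that of Nfkb2 was 20.9 ± 2.47% in CTCF KO libraries, 28.1 ± 2.62% in DKO libraries and 28.0 ± 2.44% in WT libraries. The 2 inducible brakes moved by unlike amounts. Nfkbia FPKM over Tnfaip3 FPKM was 7.76 ± 0.49 in CTCF KO libraries, 7.88 ± 0.85 in DKO libraries and 4.76 ± 0.54 in WT libraries. These sums and ratios are descriptions of RNA, and protein was not measured.

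**Figure D4:**
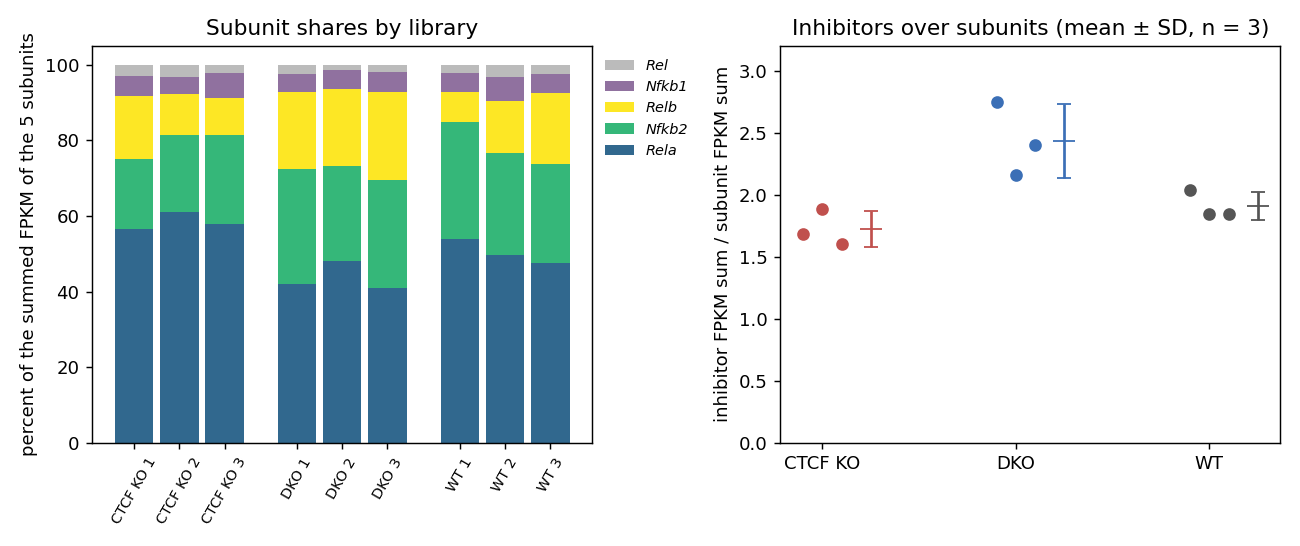
Left, the share in percent of each of the 5 subunits in their summed FPKM, as 1 stacked bar for each of the 9 libraries. Right, summed FPKM of Nfkbia, Nfkbib and Nfkbie over that of the subunits, with points for libraries and bars for the mean ± SD (n = 3). The mean Rela share is lowest in DKO, though 1 WT library lies below 1 DKO library, and the DKO ratios of 2.16 to 2.75 lie above the highest ratio of the others, 2.04.

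Genes around the family were read from 8 lists of 88 genes, of which 77 passed the filter, with the 10 members left out. In DKO against WT, 28 of the 77 were higher and 9 lower, beside 18.5% and 21.9% of all tested genes, with a median log2 fold change of 0.23. The 28 include Il2ra and Rnf11, which reached 1 FPKM in DKO libraries only. In CTCF KO against WT, 7 were higher and 8 lower, beside 5.78% and 6.37% of all tested genes (median -0.05). In CTCF KO against DKO, 10 were higher and 25 lower, beside 21.8% and 16.2% (median -0.20). The medians over all tested genes were 0.01, 0.01 and 0.02 in these comparisons. With the GC index as a covariate, 14 were higher and 4 lower in DKO against WT, 7 and 8 in CTCF KO against WT, and 3 and 13 in CTCF KO against DKO.

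Upstream of the family, the route from the antigen receptor runs through protein kinase C theta (Prkcq) and on to Bcl10, Malt1 and Traf6. Prkcq averaged 210 ± 2.21 FPKM in CTCF KO, 370 ± 24.4 FPKM in DKO and 232 ± 14.2 FPKM in WT libraries, and was higher in DKO than in WT by 0.67 (adjusted p = 3.63e-05). In CTCF KO against DKO, Prkcq, Bcl10 and Traf6 were lower, and none of these 3 was called in CTCF KO against WT. With the GC index as a covariate, Prkcq was still lower in CTCF KO than in DKO (adjusted p = 0.00805), while Bcl10 (adjusted p = 0.288, and 0.00928 to 0.288 over its alternatives) and Traf6 (adjusted p = 0.147, and 0.0121 to 0.147 over its alternatives) were not called. Among 11 IKK subunits and kinases above them, 3 were higher in DKO than in WT and 0 lower, beside 18.5% and 21.9% of all tested genes. The 3 were Ikbkb, the catalytic IKK subunit, Map3k14, the kinase that starts processing of p100, and Map3k8, a kinase held by p105. Ikbkb was called under 9 of 18 alternatives (adjusted p up to 0.163) and Map3k14 under 6 of 18 (adjusted p up to 0.760), and with the GC index 1 of the 3, Map3k8, was called. Map3k8 averaged 12.9 ± 1.11 FPKM in CTCF KO, 31.0 ± 0.72 FPKM in DKO and 20.6 ± 1.93 FPKM in WT libraries, and thus was lower in CTCF KO than in WT (-0.63, adjusted p = 0.00302) and higher in DKO than in WT (0.57, adjusted p = 0.00152). It was the 1 of 11 IKK-list genes called in CTCF KO against WT, beside 12.2% of all tested genes.

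Of 8 tested receptors of the TNF receptor family, 4 were higher in DKO than in WT (Tnfrsf1b, Tnfrsf9, Tnfrsf18 and Tnfrsf25) and 1 was lower, the costimulatory receptor Cd27. The shares over all tested genes were 18.5% higher and 21.9% lower. In CTCF KO, Tnfrsf18, the costimulatory receptor GITR, was higher and Tnfrsf25 lower than in WT. Tnfrsf18 averaged 270 ± 16.2 FPKM in CTCF KO, 249 ± 12.7 FPKM in DKO and 157 ± 9.80 FPKM in WT libraries. The Tnfrsf25 call in CTCF KO held under 6 of 19 alternatives (adjusted p up to 0.157) and was lost without any 1 of the libraries other than WT library 3, while that of Tnfrsf18 held under 19 of 19. Tnfrsf25 averaged 3.78 ± 0.45 FPKM in CTCF KO, 23.6 ± 1.99 FPKM in DKO and 8.07 ± 2.97 FPKM in WT libraries. Of 8 tested ligands, 2 were higher in DKO than in WT, the lymphotoxins Lta and Ltb, beside 18.5% of all tested genes. Another 4 were lower, among them Tnfsf8 and Tnfsf14, beside 21.9% of all tested genes. Lta averaged 21.2 ± 0.90 FPKM in CTCF KO, 28.2 ± 0.68 FPKM in DKO and 12.3 ± 0.44 FPKM in WT libraries, and was higher than in WT in CTCF KO (0.74, adjusted p = 0.00037) as in DKO (1.13, adjusted p = 3.89e-06). Tnfsf8 averaged 25.3 ± 0.92 FPKM in CTCF KO, 7.90 ± 0.06 FPKM in DKO and 17.9 ± 2.36 FPKM in WT libraries. It was higher in CTCF KO and lower in DKO than in WT, the reverse of the order of Nfkbia.

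Both IκB-like nuclear regulators, Nfkbiz and Nfkbid, were higher in DKO than in WT, and 0 of the 2 were called in CTCF KO. Nfkbiz averaged 11.6 ± 0.76 FPKM in CTCF KO, 20.1 ± 2.21 FPKM in DKO and 12.9 ± 1.20 FPKM in WT libraries. Among 12 other brakes on the pathway, 4 were higher in DKO than in WT and 1 lower, beside 18.5% and 21.9% of all tested genes. The higher ones were Tnip1, Tnip2 and Tax1bp1, which bind the Tnfaip3 protein, and Rnf11. Rnf11 was at 2.63, 9.75 and 2.51 FPKM in DKO libraries and under 1 FPKM in all others. It thus passed the filter on low values only through the group where it was high. The lower one, Commd1, which helps to clear Rela from DNA, averaged 103 ± 3.39 FPKM in CTCF KO, 97.5 ± 5.51 FPKM in DKO and 149 ± 16.3 FPKM in WT libraries, and was lower than in WT in both. Once the GC index entered the fit, 0 of the 12 were called in DKO against WT, beside 1171 of the 10172 tested genes. Commd1 was then at -0.35 (adjusted p = 0.144, the highest of its alternatives). Of 14 adaptors and ubiquitin ligases, 5 were higher in DKO than in WT, among them Birc3, beside 18.5% of all tested genes. Sharpin was the 1 called in CTCF KO, also higher, beside 5.78% of all tested genes. Irak1, with a window of 82.0% GC, was at 11.3, 5.99 and 4.56 FPKM in CTCF KO, 44.0, 63.7 and 40.0 FPKM in DKO and 5.74, 6.02 and 18.9 FPKM in WT libraries, with CTCF KO library 1 and WT library 3 again above the rest of their groups. The window of Rnf11 has 84.0% GC. With the GC index as a covariate, 11 of the 25 list genes named by the rule for DKO against WT were no longer called, Irak1, Rnf11, Nfkbiz, Nfkbid, Tnip1, Tax1bp1 and Commd1 among them, as were 13 of the 25 named for CTCF KO against DKO and 0 of the 10 for CTCF KO against WT. Calls over all tested genes went from 4113 to 1171 in DKO against WT in that fit. They went from 3867 to 783 in CTCF KO against DKO, and from 1236 to 1342 in CTCF KO against WT. The named genes had the smallest adjusted p of their lists, so these numbers are not directly comparable.

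Downstream, 24 tested genes known as NF-κB targets in lymphocytes were read. In DKO against WT, 12 were higher and 3 lower, with a median of 0.29, beside 18.5% and 21.9% of all tested genes and a median of 0.01. In CTCF KO against WT, 4 were higher and 5 lower (median -0.15), beside 5.78% and 6.37% of all tested genes. In CTCF KO against DKO, 4 were higher and 14 lower (median -0.38), beside 21.8% and 16.2% of all tested genes. Il2ra, among the 12 and the 14, passed the filter only through the DKO libraries (1.95 to 2.76 FPKM, under 1 FPKM in all others). With the GC index as a covariate, 8 were higher and 1 lower in DKO against WT, beside 490 and 681 of the 10172 tested genes. The chemokine gene Ccl5 averaged 75.7 ± 8.31 FPKM in CTCF KO, 1471 ± 4.09 FPKM in DKO and 278 ± 18.5 FPKM in WT libraries, with log2 fold changes against WT of -1.87 in CTCF KO (adjusted p = 1.43e-06) and 2.40 in DKO (adjusted p = 5.51e-08). Slc2a3, a glucose transporter gene, averaged 31.4 ± 1.5 FPKM in CTCF KO, 49.2 ± 2.1 FPKM in DKO and 24.1 ± 1.67 FPKM in WT libraries. Gadd45b, a stress-response gene, averaged 7.15 ± 0.84 FPKM in CTCF KO and 18.7 ± 1.37 FPKM in DKO libraries, a difference of -1.27 (adjusted p = 3.77e-05). Targets did not move as 1 block. Ccr7, the lymph node homing receptor gene, averaged 599 ± 31.5 FPKM in CTCF KO, 275 ± 6.47 FPKM in DKO and 508 ± 38.1 FPKM in WT libraries, and so was lower in DKO and higher in CTCF KO than in WT. Icam1 and Ccl4 were lower in CTCF KO than in WT and were not called in DKO against WT.

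**Figure D5:**
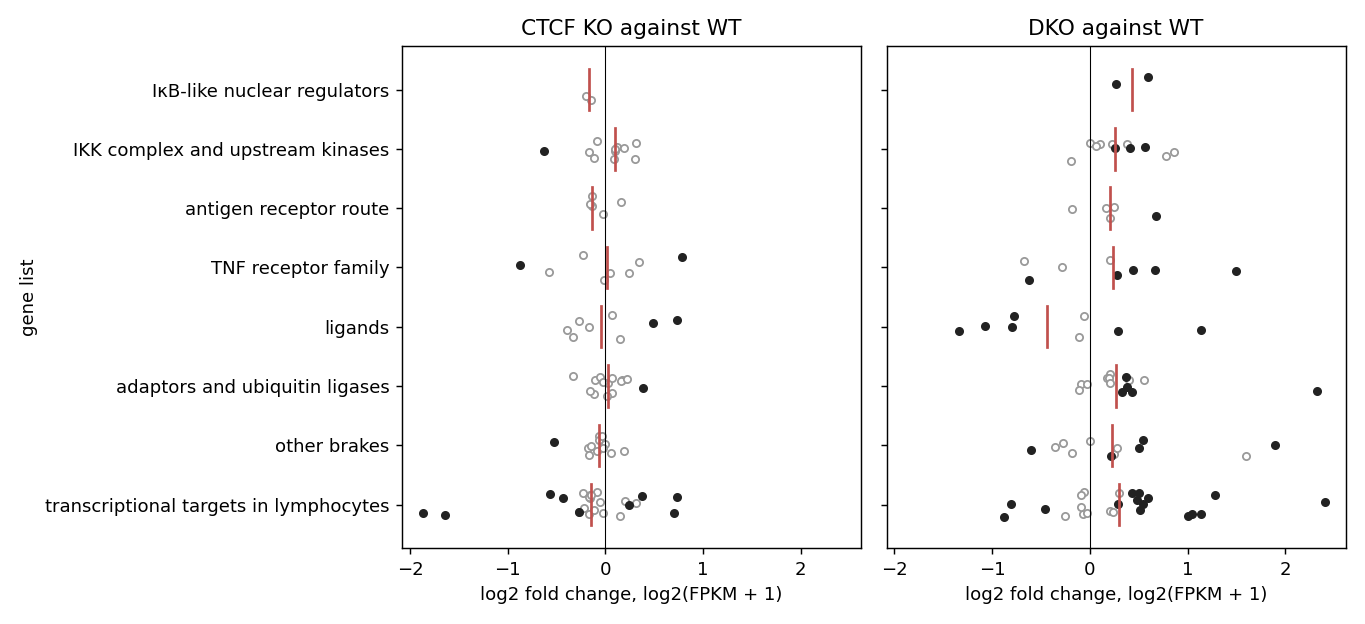
Log2 fold changes on the log2(FPKM + 1) scale of the tested genes of 8 lists around the NF-κB family, in CTCF KO against WT and in DKO against WT. Each point is a gene, filled where it passed an adjusted p of 0.05 in the limma model, and the red line is the list's median. The medians of 7 lists lie right of 0 in DKO against WT, and that of the ligands lies left of it, at -0.44.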

How the data were processed

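The authors deposited 1 table of 23946 genes with the FPKM of each library, the group means, and the p-values and q-values of their pairwise comparisons. Per the submitters' processing notes, FastQC, TopHat2 2.1.0 and Cuffdiff 2.2.1 were used, with builds mm9 and mm10; library scaling and annotation are not given in the sources used here. Of 22463 starts matched by symbol, 968 lay within 1000 bases of the GRCm38 start, so the table's positions were not used with that genome. The FPKM carry no counts, so the depth and the counting error are unknown. DKO columns were tied to their group only, and DKO libraries are numbered as in the table.

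Genes had to reach 1 FPKM in 3 or more of the 9 libraries to be tested. Group means were fitted in a linear model of log2(FPKM + 1), a scale that understates changes of low genes, with limma 3.58.1 in R 4.3.3 (moderated, with intensity trend, two-sided). Benjamini-Hochberg adjustment ran over 10172 genes, and genes were called under 0.05. The script was tested on simulated data. The labels do not say whether libraries came from separate animals, so p-values measure the spread between these libraries. Same-numbered CTCF KO and WT libraries do not share a stated source, so no pairing was used.

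The members and lists were chosen with earlier results of these data known. The text names the members, the 3 targeted genes and, from each list and comparison, up to 4 called genes with the smallest adjusted p (up to 2 with the highest mean FPKM where none was called); other genes named in counts, and the GC-rich examples, were picked after their values were seen. GC content was read from GENCODE transcripts of GRCm38, found for 96.3% of tested genes, and promoter windows from RefSeq (GRCm38.p6). Protein sequences were not used here, and 1 gene of the antigen receptor route is not reported here. Alternatives covered the pseudocount, the filter, quantile and median scaling, the trend, the libraries fitted, single libraries left out, a replicate block, the GC index, and the authors' q-values.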

Additional observations from a re-analysis of the deposited data

How the results depend on the processing

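In CTCF KO against WT, 2 to 3 members and 763 to 1183 genes were called when single libraries were left out (3 and 1236 with all). Same-numbered CTCF KO and WT libraries did not deviate together (r = -0.62, 0.16 and -0.45), and a fit with the replicate number as a block called 1 member and 297 genes. Without CTCF KO library 1 and WT library 3, 776 genes were called. In DKO against WT (8 members, 4113 genes), 4 members were called with no filter on low values (3128 genes), 5 with median centring (3848 genes), 3 with the GC index (1171 genes), and 6 to 8 (3226 to 4152 genes) without single libraries. In CTCF KO against DKO (6 members, 3867 genes), the GC index gave 3 members and 783 genes, and leaving out single libraries gave 6 to 7 members and 2933 to 4136 genes. The cause of these shifts was not tested.

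Directions turned for members that had not passed the test, and for Bcl3. Rel was at -0.048 in CTCF KO against WT without CTCF KO library 1 and WT library 3, at -0.076 (quantile scaling) and -0.013 (median centring) in DKO against WT, and at 0.090 and 0.037 under the same scalings in CTCF KO against DKO. Nfkbib was at 0.032 (median centring) and 0.055 (without those libraries) in the last comparison. With the GC index, Bcl3 was at -1.12 in DKO against WT and 0.73 in CTCF KO against DKO. Over single libraries left out, CTCF KO against WT ranged over -0.098 to 0.16 for Nfkb1, -0.094 to 0.16 for Rel, -0.45 to 0.15 for Relb, -0.13 to 0.048 for Nfkbie and -1.34 to 0.50 for Bcl3. DKO against WT ranged over -0.061 to 0.20 for Rel, and CTCF KO against DKO over -0.12 to 0.058 for Rel and -0.14 to 0.055 for Nfkbib. With unknown depth, no counting error can be given for genes at a few FPKM, such as Rel.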
